A study of Mus musculus with 4 samples.

Results

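Proliferating tumour spots were those positions of a spatial array at which genes of cell division made up an unusually large part of the RNA, in sections of mouse brain taken at day 11 from animals that had received a tumour and had it resected. A spot was a member when it lay over tissue, held at least 2000 unique molecular identifiers (UMIs, each standing for 1 captured molecule) and reached a summed level of at least 1500 counts per 1000000 UMIs (CPM) over 21 genes of the cell cycle. By this rule 3389 of 12696 spots were members. They were compared within each section area with 7713 brain spots, which met the same depth minimum but lay under 300 CPM, while 1594 spots fell between the thresholds. The series has 2 capture areas from mice given a hydrogel, labelled TREAT, and 2 from mice labelled Vehicle, which the series text calls non-treated, all at day 11. The areas are named Vehicle 1+4, Vehicle 2+3, TREAT 1+4 and TREAT 2+3, and values below follow that order unless an area is named. Each area held 2 large pieces of tissue, 8 in all, and the series text states 4 animals in total. The sources used here do not say which animal gave which piece, so p-values measure the spread between these 4 areas. The origin of the tumour cells, the strain, the sex and the age of the mice, and the make-up of the hydrogel are likewise not given.

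Cells that divide copy their DNA in S phase and separate the copies in mitosis, and the genes for each step are switched on in turn, many of them by E2F factors and later by FOXM1 and MYBL2. In the adult brain few cells divide outside the neurogenic niches, so a dense field of cells that express these genes marks a growing tumour. Mouse gliomas are also infiltrated by macrophages and lymphocytes, and a spot on these arrays can cover several cells, so its RNA is a mixture. In such sums, fewer cells of a type and less RNA per cell cannot be told apart.

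The tumour spots formed compact fields, 1 large field or nearly so in each piece of tissue. They numbered 1009, 1471, 272 and 637 in the 4 areas, of 3016, 3327, 3349 and 3004 spots that met the depth minimum. The 8 pieces held between 45 and 738 tumour spots each, and the largest group of touching tumour spots took in between 94.0% and 100% of a piece's members. Of the in-tissue neighbours of tumour spots, 97.6%, 96.4%, 92.5% and 94.9% were tumour spots too, although position played no part in the rule. Only 2, 6, 1 and 4 tumour spots had no tumour neighbour. Spots whose in-tissue neighbours were all tumour spots are called inner spots (934, 1325, 214 and 556), and the other tumour spots are called the rim (75, 146, 58 and 81). The rim took 7.43%, 9.93%, 21.3% and 12.7% of the tumour spots, with the smallest field having the largest share.

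**Figure D1:**
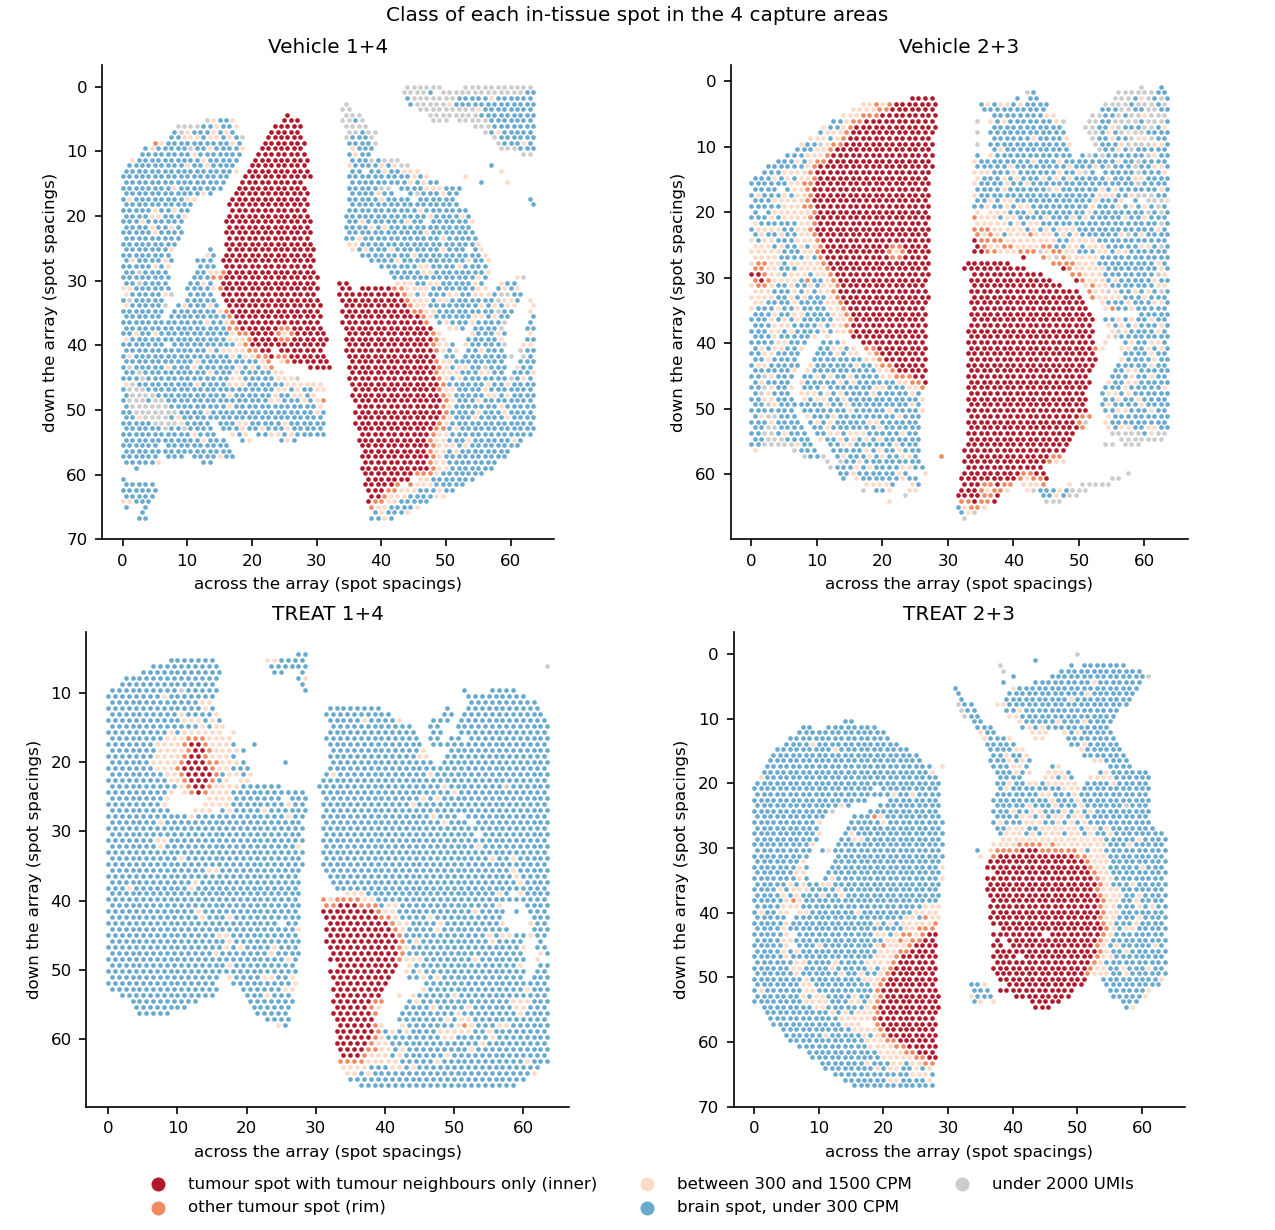
Position of every in-tissue spot on the 4 capture areas, with both axes in spot spacings and colour giving the class of the spot. Inner tumour spots form solid fields bordered by rim spots and by spots between the thresholds, and the fields are larger in both Vehicle areas (1009 and 1471 tumour spots) than in the TREAT areas (272 and 637).

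Tumour spots took a larger share of both Vehicle areas than of either TREAT area. The shares were 33.5% (Wilson 95% interval 31.8 to 35.2) and 44.2% (42.5 to 45.9) in Vehicle, and 8.12% (7.24 to 9.10) and 21.2% (19.8 to 22.7) in TREAT. The means were 38.8% ± 7.61 and 14.7% ± 9.25 (SD, n = 2 areas each), a difference of -24.2 percentage points. A two-sided exact permutation test gave p = 0.333, which is the smallest that 6 regroupings of 4 areas allow, so the design cannot reach the threshold. The share of tumour neighbours was 97.0% ± 0.792 in Vehicle and 93.7% ± 1.68 in TREAT, with the same exact permutation p of 0.333. Intervals cover counting error only. Brain spots of the 4 areas also differed in genes of deep brain regions, such as Pmch below, so the shares describe these sections.

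The label was checked against its markers. Mki67, which encodes the Ki-67 protein of dividing cells, stood at 220, 219, 405 and 314 CPM in tumour spots and at 3.36, 6.83, 2.70 and 4.46 CPM in brain spots. Top2a, the topoisomerase that untangles replicated DNA, was at 108, 99.3, 156 and 171 CPM against 2.00, 2.76, 2.45 and 2.93 CPM. Ube2c, an enzyme that marks cyclins for destruction, was at 198, 194, 123 and 67.5 CPM against 3.08, 5.27, 2.91 and 2.72 CPM, and Rrm2, a subunit that makes DNA precursors, at 308, 287, 221 and 186 CPM against 6.89, 8.03, 6.09 and 6.27 CPM. Not every gene of the rule stood high. Pcna was near 0 in both classes, at 1.20, 1.85, 3.43 and 2.91 CPM in tumour spots and 0.998, 1.08, 1.64 and 1.44 CPM in brain spots. All these genes chose the spots, so the values describe the rule and test nothing. The median summed level of the 21 genes was close in the 4 areas, at 2953, 2948, 3008 and 2698 CPM per tumour spot. Few members lay near the threshold: 1, 12, 3 and 11 spots were between 1500 and 1600 CPM, and 6, 10, 2 and 4 spots lay just outside it, between 1400 and 1500 CPM.

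Tumour spots were deeper than brain spots in every area and deeper in TREAT than in Vehicle. Their median UMI counts were 21056, 21609, 33070.5 and 35861, with medians of 6345, 6464, 8271.5 and 8533 genes detected. Brain spots had medians of 5936.5, 5493.5, 14668 and 10891 UMIs. The 4 areas held 34202695, 45960125, 56150597 and 51081123 UMIs over 3193, 3488, 3352 and 3013 tissue spots. The array layout is common to all areas, and 4980 spot barcodes were present in all 4. At low depth a single UMI is worth much: below 3333.3 UMIs a spot with 1 UMI of a rule gene already passes 300 CPM, so the spots between the thresholds include shallow brain spots.

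Counts were summed over the tumour spots and over the brain spots of each area, and the 8 sums were compared with edgeR's quasi-likelihood F-test with the area as a block. Of 19547 genes outside the rule, 6149 (31.5%) were higher and 6751 (34.5%) lower in tumour spots at an adjusted p under 0.05, with a median log2 change of 0.04 over all genes. Scaling to library totals in place of edgeR's TMM factors moved that median to 0.26. With so many genes called, the size of a difference and its repeat in every area say more than the call, and a list with members called in similar shares as all genes is not set apart.

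Among genes with at least 50 CPM on the higher side, the largest increase was in Hmga2, a chromatin protein of embryonic and many cancer cells. Hmga2 stood at 98.8, 126, 114 and 66.4 CPM in tumour spots and at 1.63, 2.76, 0.392 and 0.454 CPM in brain spots (ENSMUSG00000056758, mm10 chromosome 10, 120361268 to 120476469). The tumour areas all lay far above the brain areas, and the fitted difference was 91.4-fold (log2 change 6.51 ± 0.36 SE, edgeR adjusted p = 7.27e-07, 4 of 4 areas). Rhox5, a homeobox gene on the X chromosome whose normal sites include testis and placenta, was at 499, 645, 598 and 707 CPM in tumour spots and 7.98, 15.9, 3.60 and 5.74 CPM in brain spots. Its fitted difference was 74.2-fold (log2 6.21 ± 0.32, edgeR adjusted p = 5.20e-07). Tex101, a surface protein of male germ cells, was nearly as far apart, with 584, 745, 552 and 763 CPM in tumour spots against 6.53, 22.9, 3.23 and 6.93 CPM (log2 6.21 ± 0.37).

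The locus Cdkn2a, which encodes the p16 and ARF suppressors that restrain the cell cycle, was also among the 12 largest increases. Cdkn2a was at 510, 483, 385 and 359 CPM in tumour spots and 6.71, 16.4, 3.67 and 3.96 CPM in brain spots, a 58.7-fold difference (log2 5.88 ± 0.29, edgeR adjusted p = 4.10e-07; ENSMUSG00000044303, mm10 chromosome 4, 89274473 to 89294619). The others were Csn3, the milk protein kappa-casein (415, 205, 379 and 197 CPM against 7.26, 7.31, 2.49 and 1.77 CPM), the mitotic motor Kif20a (log2 5.85), the arginine-modifying enzyme Padi4 (5.76), the interferon-induced GTPase Gbp2b (5.72), the tubulin Tubb6 (5.61), Apol9a (5.59), the collagen chain Col9a1 (5.56) and Anxa1 (5.56), an annexin. In none of these 12 genes did a tumour area overlap a brain area, and all 12 stayed past the threshold in 14 of 14 alternatives. The genes were chosen as the largest increases past the threshold with the same sign in every area. Both results therefore largely follow from the choice and add no support, and the matching shares over all genes are not given here. Gbp2b and Apol9a have close copies in the mouse genome, so how reads were shared among copies could move their values.

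**Figure D2:**
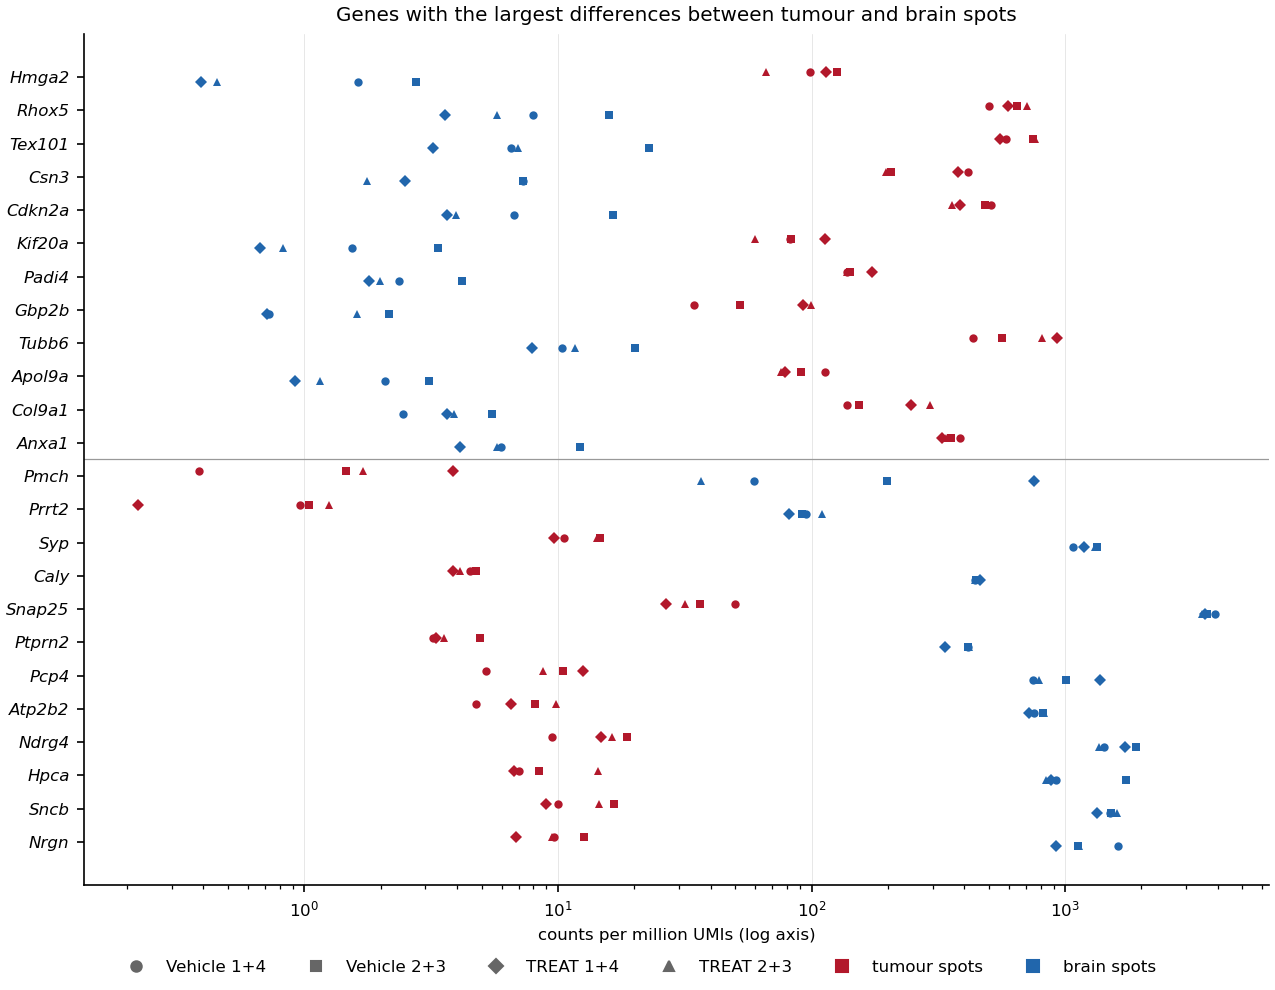
Level of the 12 genes most increased and the 12 most decreased in tumour spots (red) against brain spots (blue), with 1 marker per capture area on a log axis of CPM. The classes do not overlap for any of the 24 genes, which were chosen by the size and sign of the difference. Hmga2 sits between 66.4 and 126 CPM in tumour spots and at or below 2.76 CPM in brain spots. Nrgn sits between 6.85 and 12.7 CPM in tumour spots and above 924 CPM in brain spots.

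The 12 largest decreases were in genes mostly known from neurons. Nrgn, the postsynaptic calmodulin-binding protein neurogranin, was at 9.63, 12.7, 6.85 and 9.46 CPM in tumour spots and at 1620.5, 1119.5, 924 and 1132 CPM in brain spots (ENSMUSG00000053310, mm10 chromosome 9, 37544493 to 37552745). The fitted difference was 142-fold (log2 change -7.15 ± 0.20, edgeR adjusted p = 2.85e-08). Sncb, beta-synuclein (log2 -7.13), Hpca, the calcium sensor hippocalcin (-7.10), Ndrg4 (-6.99), the calcium pump Atp2b2 (-6.98), Pcp4 (-6.95) and Ptprn2 (-6.93) followed. Snap25, a protein of the vesicle fusion machinery, kept 50.1, 36.4, 26.7 and 31.7 CPM in tumour spots, where brain spots had 3896, 3635, 3571 and 3465 CPM. Caly (-6.89), the vesicle protein Syp (-6.86), Prrt2 (-6.85) and Pmch (-6.82), the precursor of melanin-concentrating hormone, completed the group. Pmch differed most between areas, as brain spots had 59.2, 199, 752 and 36.7 CPM.

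Genes of DNA replication and mitosis that the rule did not use were all higher in tumour spots, 30 of 30 and 33 of 33, with median log2 changes of 3.37 and 4.26. Since they share the cell cycle with the rule, these counts are a description. Cdc45, a helicase subunit, was at 66.0, 66.6, 86.5 and 77.4 CPM in tumour spots against 4.90, 4.79, 4.50 and 4.37 CPM in brain spots. Uhrf1, which carries DNA methylation through replication, was at 176, 156, 138 and 157 CPM against 3.81, 5.75, 2.42 and 3.55 CPM. Kif2c, a motor that trims microtubules at kinetochores, was at 60.8, 67.05, 94.3 and 84.1 CPM against 1.27, 2.40, 1.59 and 1.57 CPM. Levels of the 4 areas were alike: the summed replication list stood at 3177, 3170, 3174 and 3108 CPM and the summed mitosis list at 3245, 3156, 3396 and 3241 CPM in tumour spots. Within an area the replication list varied from spot to spot by 1.28, 1.27, 1.31 and 1.23 times between its quartiles, and across the 1009, 1471, 272 and 637 tumour spots its rank correlation with the rule score was 0.38, 0.45, 0.45 and 0.37, over values that share each spot's depth.

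Because the mitosis genes moved together, the promoters of the 3 with the largest differences among those with an entry in the promoter table are printed here. Many mitotic genes share a pair of promoter elements, the CHR element bound by the DREAM and B-MYB complexes, written here as TTTGAA, and the CCAAT box bound by NF-Y. The sequences are the 250 bases before each gene's start, 5′ to 3′ on the minus strand that each gene lies on, from RefSeq on GRCm38.p6. Capitals mark each match to TTTGAA or CCAAT on either strand, the reverse being TTCAAA or ATTGG.
Ect2, chr3:27153879-27154128: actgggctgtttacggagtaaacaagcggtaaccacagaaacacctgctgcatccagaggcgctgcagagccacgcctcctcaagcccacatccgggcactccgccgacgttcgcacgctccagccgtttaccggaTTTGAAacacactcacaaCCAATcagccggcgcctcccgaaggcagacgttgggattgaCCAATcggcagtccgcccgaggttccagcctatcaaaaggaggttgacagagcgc
Kif2c, chr4:117178773-117179022: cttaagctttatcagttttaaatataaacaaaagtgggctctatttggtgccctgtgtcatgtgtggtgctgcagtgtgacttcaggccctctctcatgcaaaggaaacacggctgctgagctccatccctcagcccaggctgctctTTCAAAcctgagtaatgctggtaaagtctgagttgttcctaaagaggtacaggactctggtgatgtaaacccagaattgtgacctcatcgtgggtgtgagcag
Hmmr, chr11:40733438-40733687: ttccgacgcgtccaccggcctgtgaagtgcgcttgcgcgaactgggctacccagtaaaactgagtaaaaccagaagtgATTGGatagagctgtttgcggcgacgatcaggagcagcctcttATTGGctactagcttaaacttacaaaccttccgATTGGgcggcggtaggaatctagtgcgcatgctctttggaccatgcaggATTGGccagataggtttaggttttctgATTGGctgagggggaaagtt
The window of Ect2, which steers the closing of the cell at division, held 1 CHR match and 2 CCAAT matches, that of Kif2c held 1 CHR match and 0 CCAAT matches, and that of Hmmr, a spindle and hyaluronan-binding protein, held 0 CHR matches and 5 CCAAT matches. Of 30 mitosis genes with an entry, 8 (26.7%) held TTTGAA, 22 (73.3%) held CCAAT and 7 (23.3%) both. Over 27025 promoters of the same length these shares were 16.3%, 34.5% and 5.73%. A match describes letters in the window and shows no binding.

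Regulators of the cell cycle were mostly higher too, with 16 of 20 cyclin and transcription factor genes higher, 1 lower and a median of 2.33. Foxm1, the factor that drives mitotic genes, was at 58.6, 54.5, 56.9 and 60.1 CPM in tumour spots and 1.90, 2.52, 2.51 and 2.104 CPM in brain spots (log2 4.44 ± 0.15). Mybl2, another factor that switches on such genes, rose by 4.79 ± 0.17, and Cdk6, a kinase of G1 phase, by 4.33 ± 0.16. Ccnd1, the cyclin that opens G1, was at 1952, 1832, 952 and 894 CPM in tumour spots against 126, 151, 61.6 and 95.8 CPM. Of 7 inhibitors of cyclin-dependent kinases, 5 were higher and 1 lower, Cdkn2d (log2 -1.09 ± 0.11), while Cdkn2c was 4.93-fold and Cdkn1b 2.15-fold higher (edgeR adjusted p = 3.83e-07 and 3.08e-05). In the list of p53 targets and DNA damage genes, 9 of 17 were higher and 5 lower. Its repair genes Brca1 (log2 4.14) and Fancd2 (3.63) rose, as did Trp53 itself (2.77 ± 0.09), from 34.1, 38.1, 26.0 and 29.3 CPM in brain spots to 262, 274, 215 and 245 CPM in tumour spots. Mdm2, the main target and inhibitor of p53, had a log2 change of 0.14 ± 0.11 (edgeR adjusted p = 0.291).

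Growth and metabolism genes divided by member. Myc, the factor that drives ribosome production, was at 304, 240, 178 and 190 CPM in tumour spots and 10.6, 15.7, 7.06 and 10.7 CPM in brain spots (log2 4.18 ± 0.18, edgeR adjusted p = 1.95e-07), and 16 of 20 genes of its list were higher, 2 lower. Mycn, its paralog, was one of the lower genes (log2 -2.43 ± 0.25). Of 20 growth factor receptors, 6 were higher and 13 lower. Met, the receptor of hepatocyte growth factor, was at 87.8, 74.8, 86.3 and 134 CPM against 6.17, 5.27, 5.74 and 11.3 CPM, and Epha2 was 6.08-fold higher. Egfr, often amplified in human glioblastoma, was lower, at 1.34, 1.76, 4.42 and 3.18 CPM in tumour spots and 9.71, 10.2, 9.76 and 10.7 CPM in brain spots, and Pdgfra fell by 2.03 ± 0.24 on the log2 scale.

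Glycolysis genes were split, with 6 of 19 features higher and 10 lower. Slc16a3, the lactate exporter, rose by 4.22 ± 0.15, while Eno2, the neuronal enolase, fell by 4.95 ± 0.13, and Aldoc, the aldolase of astrocytes, fell by 3.85 ± 0.14. Nuclear genes of oxidative phosphorylation had 6 of 20 higher and 9 lower, with log2 changes between -1.26 and 0.81. Sdha, a subunit of complex II and the lowest in p, was at 150, 166, 165 and 208 CPM in tumour spots and 314, 319, 330 and 327 CPM in brain spots. On library totals that count was 8 higher and 8 lower. The hypoxia list had 6 of 14 higher and 4 lower, with a median of 0.07. Car9, the hypoxia-induced carbonic anhydrase, was 10.3-fold higher, Ndrg1 and Bnip3 fell by 3.54 ± 0.20 and 2.23 ± 0.13, and Vegfa, the vessel growth factor, had a log2 change of 0.08 ± 0.11 (edgeR adjusted p = 0.551).

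Genes of the mesenchymal state of glioma were all higher, 17 of 17, with a median of 3.73, while genes of neural progenitors were mostly lower, 6 of 20 higher and 12 lower. Lgals1, a galectin, was at 1111, 1430, 1434 and 837 CPM in tumour spots and 40.8, 57.5, 24.6 and 22.2 CPM in brain spots (log2 4.92 ± 0.20). Vim, the intermediate filament vimentin, was at 2554, 2411, 3068 and 2174 CPM against 225, 346, 163 and 160 CPM, and Timp1 rose by 5.14 ± 0.22. The summed mesenchymal list stood at 7493, 7551, 7759 and 6017 CPM in tumour spots and 543, 743, 370 and 417 CPM in brain spots. Nes, the filament nestin of neural stem cells, was 4.59-fold higher, but Dcx, Bcan and Ptprz1 fell by 4.55 ± 0.30, 4.21 ± 0.13 and 3.76 ± 0.28, and Olig2 fell by 2.74 ± 0.27. Sox2, a stem cell factor, had a log2 change of -0.08 ± 0.11 (edgeR adjusted p = 0.541). The oligodendrocyte precursor list had 8 of 10 lower, yet Sox10, the lineage factor of oligodendrocytes and neural crest, was higher, at 387, 336, 256 and 347 CPM in tumour spots and 74.6, 77.3, 64.9 and 47.1 CPM in brain spots (log2 2.13 ± 0.15, edgeR adjusted p = 2.78e-06). Matrix genes had 12 of 21 higher and 2 lower, from Col6a1 (log2 -1.23) to Col6a3 (2.58), both chains of collagen VI, and proteases that cut matrix had 11 of 13 higher and 1 lower, with Mmp14 at 104, 93.8, 88.9 and 53.02 CPM against 14.5, 17.4, 11.8 and 9.90 CPM.

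**Figure D3:**
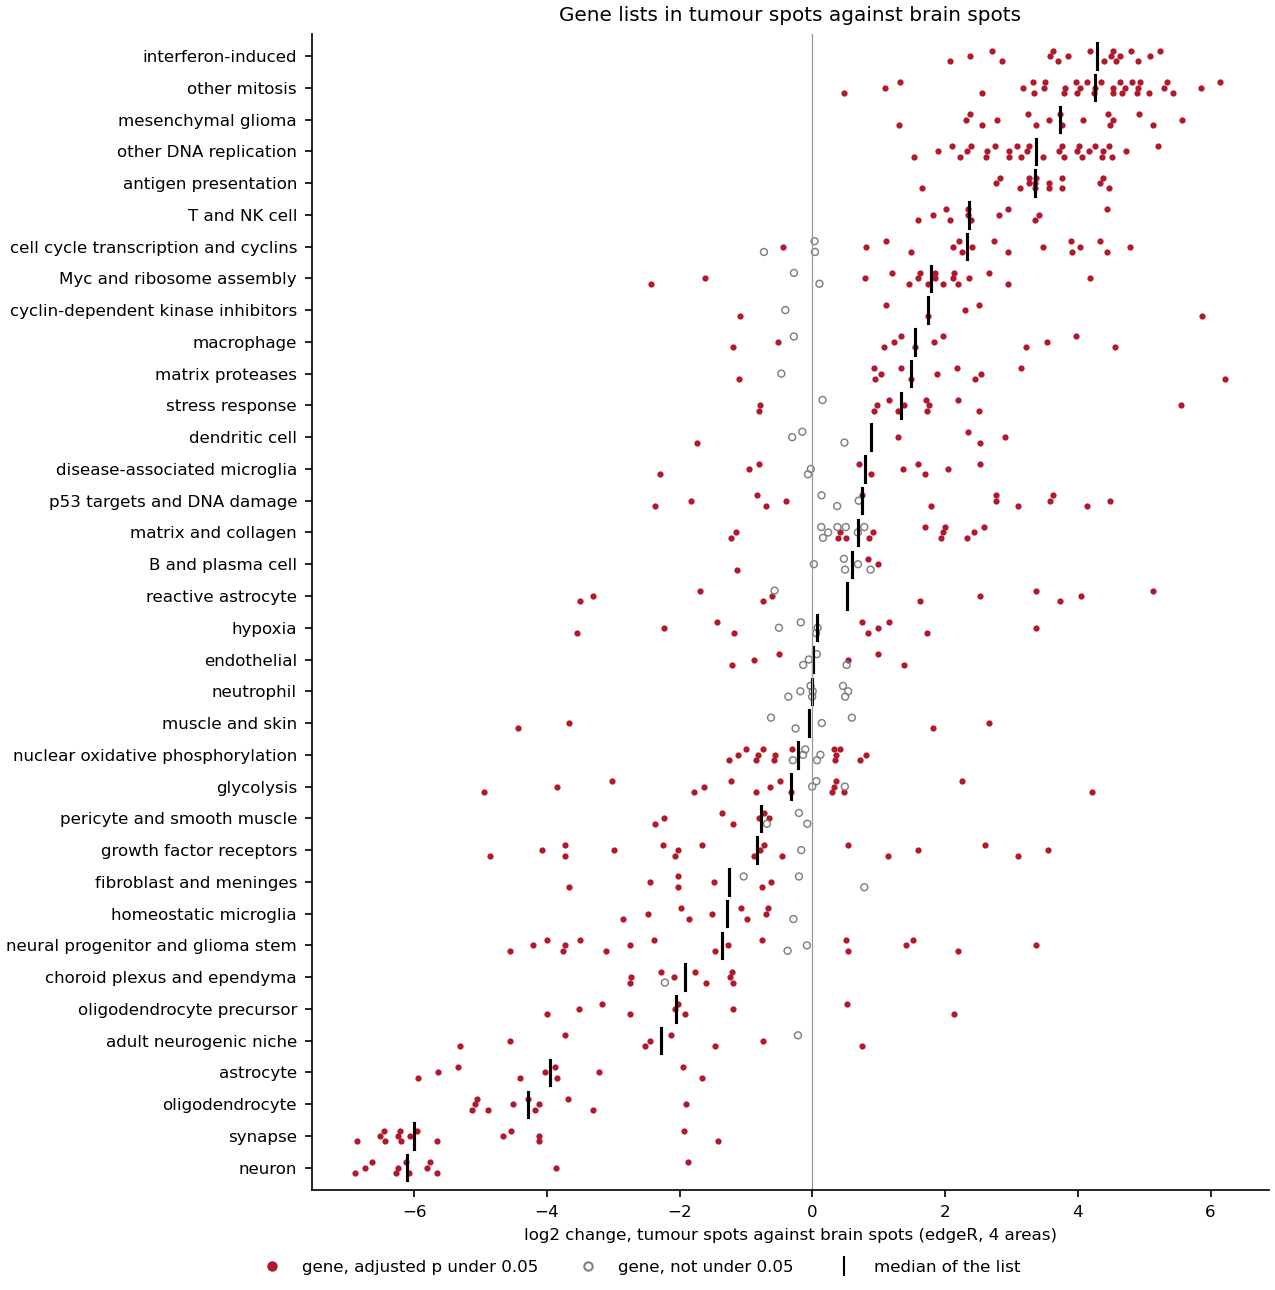
Log2 change of each member of the 36 gene lists in tumour spots against brain spots, with filled points past the adjusted p threshold of 0.05, open points not past it and a bar at the median of each list. Interferon, cell cycle, mesenchymal and antigen presentation lists lie to the right (median 4.29 for interferon-induced genes) and neuron, synapse, oligodendrocyte and astrocyte lists to the left (median -6.10 for neuron genes), while the hypoxia, endothelial and neutrophil lists centre near 0.

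Interferon-induced genes were the list with the highest median, 4.29, and 18 of 18 were higher in tumour spots. Isg15, a ubiquitin-like antiviral protein, was at 569, 721, 1265 and 914 CPM in tumour spots and 28.1, 51.4, 21.5 and 33.4 CPM in brain spots (log2 4.49 ± 0.30, edgeR adjusted p = 2.43e-06). Cxcl10, a chemokine that draws T cells, was at 1298, 1127, 1039 and 1283 CPM against 35.8, 49.3, 11.6 and 26.4 CPM. The whole list summed to 9958, 10258, 12114 and 12229 CPM in tumour spots and to 513, 784, 309 and 508 CPM in brain spots. Antigen presentation genes were higher in 16 of 16, with a median of 3.36. B2m, the light chain of class I molecules, was at 6610, 7506, 5886 and 7647 CPM against 789, 1450, 622 and 703 CPM. Cd74, the class II chaperone, was at 2830, 3227, 3120 and 3447 CPM against 209, 514, 192 and 242 CPM. The class I and II genes belong to families with close copies, which probe pairs may not separate. In the stress response list 11 of 14 features were higher and 2 lower, with Trib3, a pseudokinase of the amino acid response, at 166, 155, 156 and 122 CPM against 3.08, 4.44, 2.08 and 2.19 CPM.

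Most T and NK cell and macrophage genes were higher in tumour spots, and most of those of resting microglia lower. All 12 T and NK cell genes were higher, with a median of 2.37. Cd3e, a chain of the T cell receptor complex, was at 18.3, 14.1, 36.3 and 20.4 CPM in tumour spots and 2.45, 3.72, 2.65 and 2.15 CPM in brain spots (log2 2.81 ± 0.27, edgeR adjusted p = 2.02e-05), and Lck, the kinase that it engages, was 7.71-fold higher. Of 13 macrophage genes 10 were higher and 2 lower. Ccr2, the receptor of incoming monocytes, was at 30.2, 42.9, 56.3 and 25.6 CPM against 3.17, 5.03, 3.30 and 2.85 CPM, and Arg1, arginase 1, at 63.4, 97.8, 129 and 13.2 CPM against 1.45, 4.68, 2.47 and 1.44 CPM, with TREAT 2+3 far below the other areas. Of 10 genes of homeostatic microglia 9 were lower, including P2ry12, the purine receptor of resting microglia, at 8.52, 6.84, 10.8 and 13.6 CPM against 37.7, 31.4, 35.0 and 29.0 CPM. Genes of disease-associated microglia had 7 of 12 higher and 3 lower. None of 8 neutrophil genes passed the threshold by edgeR, whose fit had 6471 genes higher and 6946 lower at an unadjusted p under 0.05, and 2 were higher on library totals. Endothelial genes were 3 of 10 higher and 3 lower, and genes of pericytes, of fibroblasts and of the choroid plexus were lower in 7 of 10, 7 of 10 and 9 of 10.

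Genes of the surrounding brain were at low levels in inner tumour spots and several-fold higher in the rim. Neuron genes were lower in 12 of 12, synapse genes in 16 of 16, astrocyte genes in 10 of 10 and oligodendrocyte genes in 11 of 11. The summed neuron list stood at 257, 268, 277 and 327 CPM over all tumour spots, at 233, 217, 224 and 273 CPM in inner spots, at 746, 969, 491 and 835 CPM in the rim and at 10354, 9739, 9015 and 10093 CPM in brain spots. Oligodendrocyte genes, which encode myelin, were at 293, 366, 491 and 532 CPM in inner spots, 2002, 2747, 4053 and 5290 CPM in the rim, 14564, 11658, 29484 and 20346 CPM between the thresholds and 9790, 10433, 12369 and 8365 CPM in brain spots. They were thus highest between the thresholds in each area, a class set by the rule score and not by position. The astrocyte list stood at 377, 419, 493 and 437 CPM in inner spots and was also highest between the thresholds, at 6993, 5829, 6280 and 5561 CPM, with 6184, 5780, 5661 and 5080 CPM in brain spots. These levels follow the rule score by position, so no test is given.

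Immune lists followed another course. Macrophage genes were higher in the rim, at 811, 961, 1128 and 719 CPM, than in inner spots, at 490, 595, 614 and 431 CPM, and T and NK cell genes likewise, at 325, 209, 309 and 192 CPM in the rim and 185, 146, 180 and 148 CPM in inner spots. B and plasma cell genes, of which 2 of 8 were higher and 1 lower in tumour against brain spots, were at 814, 1116, 940 and 158 CPM in the rim against 99.9, 85.1, 144 and 51.3 CPM in inner spots. Homeostatic microglia genes were at 234, 220, 273 and 253 CPM in inner spots and 597, 608, 776 and 748 CPM in the rim. They were highest between the thresholds, at 1200, 999.6, 1500 and 1156 CPM, with 527, 641, 488 and 358 CPM in brain spots. Interferon-induced genes stayed at 9566, 9811, 10141 and 10815 CPM in the rim, close to the inner spots, and were at 2322, 3010, 2527 and 2765 CPM between the thresholds.

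**Figure D4:**
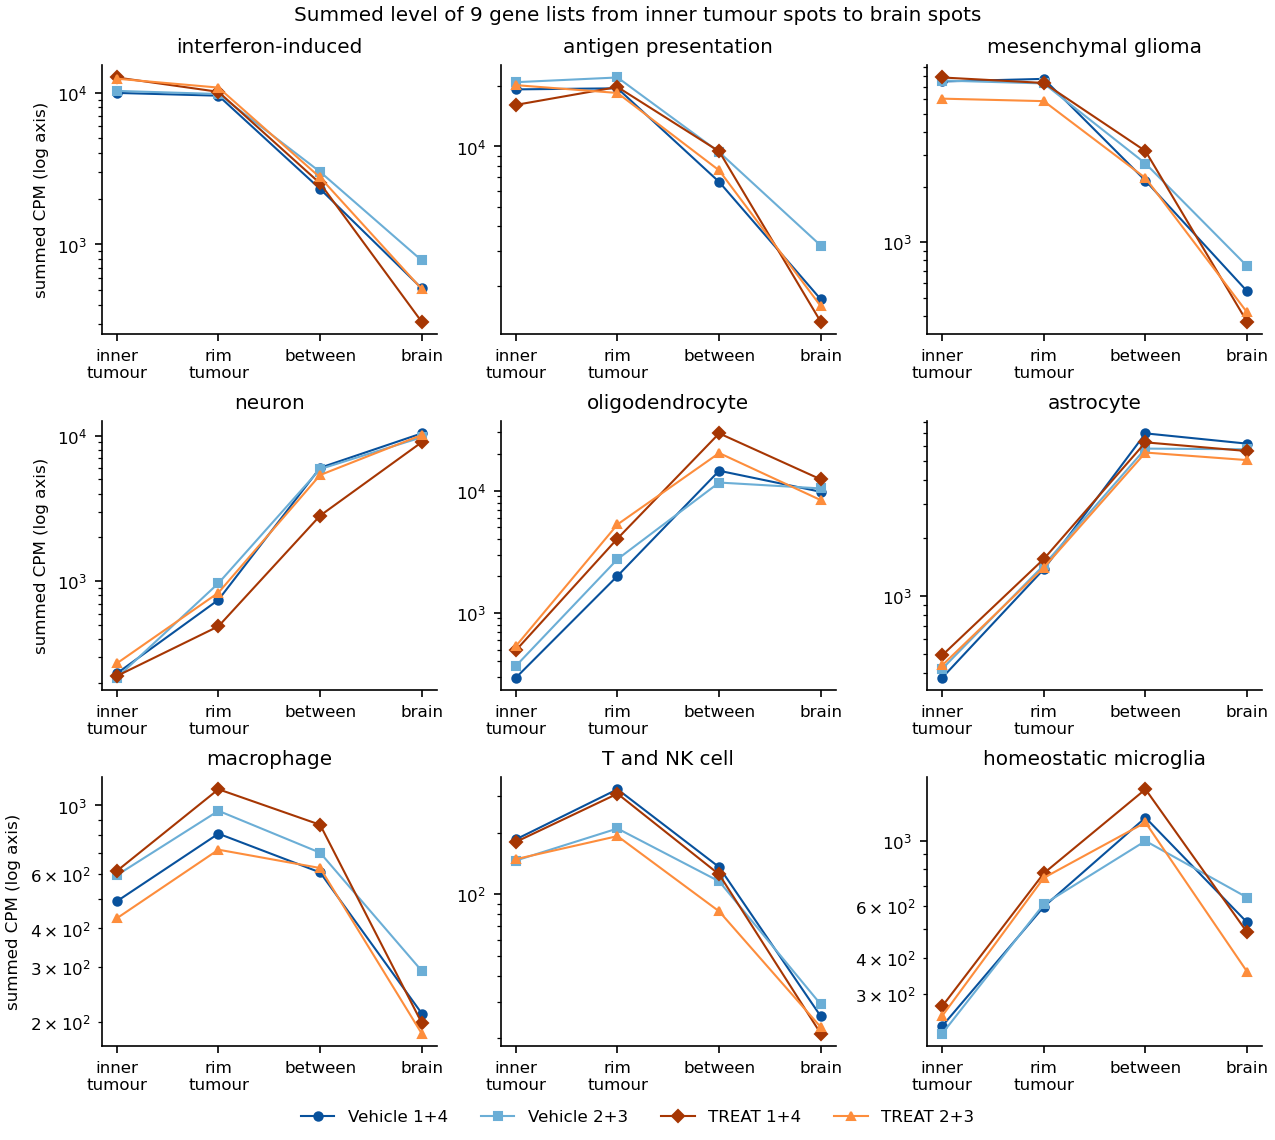
Summed level of 9 gene lists in inner tumour spots, rim tumour spots, spots between the thresholds and brain spots, with 1 line per capture area and the level on a log axis. Neuron genes climb from inner to brain spots, and oligodendrocyte and astrocyte genes peak between the thresholds. Interferon-induced, antigen presentation and mesenchymal lists are lower between the thresholds and in brain spots than in the rim. Macrophage and T and NK cell lists are highest in the rim in all 4 areas, at 719 to 1128 CPM for macrophage genes.

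A group of genes chosen after its values were seen also set the classes apart. Kdm5d, Eif2s3y, Uty and Ddx3y, which lie on the Y chromosome and are expressed in most male tissues, were each lower in tumour spots in all 4 areas. Ddx3y, an RNA helicase, was at 7.23, 7.89, 17.9 and 10.8 CPM in tumour spots and 48.3, 48.1, 57.5 and 57.4 CPM in brain spots. Summed over the 4 genes, the tumour level was 14.7%, 16.1%, 27.3% and 17.4% of the brain level, and 13.2%, 14.4%, 20.5% and 15.0% in inner spots alone. In the rim it was 45.0%, 39.5%, 54.3% and 39.9%. The median log2 change of 6 Y-linked genes was -2.31, where the medians of the other chromosomes with a value ran from -0.51 to 0.45. No test is given, and no cause was tested.

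The spread over the 8 pieces of tissue was small beside these differences for most genes. Rhox5 ranged from 484 to 742 CPM in the tumour spots of the 8 pieces and from 2.65 to 18.9 CPM in their brain spots. Cdkn2a ranged from 271 to 566 CPM against 2.22 to 17.2 CPM, and Snap25 from 21.4 to 66.96 CPM against 2647 to 4337 CPM. Mbp, myelin basic protein, varied more within tumour spots, from 109 to 969 CPM, and Atf5, a factor of the amino acid stress response, from 41.1 to 369 CPM. The pieces of an area share a library and may share an animal.

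Tumour spots of TREAT and Vehicle areas were compared next, which asks whether tissue that meets the same rule differs with the hydrogel. Of 19714 genes, 2191 (11.1%) were higher and 3549 (18%) lower in TREAT by edgeR at an adjusted p under 0.05 (n = 2 areas each). Of the higher genes, 2039 had a mean under 20 CPM in TREAT, and of the lower genes 360 had a mean under 20 CPM in Vehicle. These counts rest on the scaling. TMM factors gave a median change of 0.09 over all genes, and library totals gave 0.51, with 7858 genes higher and 1372 lower, so that 85.1% of calls were higher where TMM gave 38.2%. Without Vehicle 1+4 the counts were 106 higher and 1353 lower, and without TREAT 2+3 875 were higher. Fitted changes below use TMM factors, while CPM levels are per library total, and TREAT tumour spots were also deeper, as given above. Depth and treatment cannot be told apart here.

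The gene with the largest named decrease was Atf5, a regulator switched on when amino acids run short or mitochondria are damaged. Atf5 stood at 262 and 195 CPM in the Vehicle areas and at 47.4 and 44.7 CPM in the TREAT areas, groups that lie far apart (228.7 ± 47.6 and 46.1 ± 1.90 CPM, SD, n = 2; ENSMUSG00000038539, mm10 chromosome 7, 44812256 to 44816658). The fitted difference was 6.70-fold (log2 change -2.74 ± 0.19, edgeR adjusted p = 1.05e-06) and -2.31 on library totals. Brain spots also had less Atf5 in TREAT, at 40.6 and 36.3 CPM in Vehicle and 20.1 and 16.2 CPM in TREAT. Tumour spots of the 2 pieces of Vehicle 1+4 differed in Atf5, at 369 and 155 CPM. Nkd2, which restrains Wnt signalling, was at 84.9 and 68.8 CPM in Vehicle and 26.6 and 13.9 CPM in TREAT (log2 -2.39 ± 0.24). Faim2, an inhibitor of cell death, had a log2 change of -2.14. In brain spots Faim2 was higher than in tumour spots, at 507 and 498 CPM in Vehicle and 445 and 290 CPM in TREAT. Others chosen by the smallest p were Tnfaip2 (208 and 154 CPM against 52.4 and 69.3 CPM) and the kinase inhibitor Cdkn2b (log2 -1.96). The rest were Col9a3, a chain of collagen IX (-1.92), Pex6 of peroxisome assembly (-1.92), the poly(A)-binding protein Pabpc4 (-1.86), Rin3 (-1.72) and Ubn2 (-1.71). On library totals the log2 changes of these 10 genes ran from -2.31 (Atf5) to -1.29 (Ubn2), all past the threshold. The genes were chosen as the smallest p among those with at least 20 CPM and areas that did not overlap. That filter was met by 2404 named lower genes. Passing again on the same sums largely follows from the choice and adds no support.

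The named increases were smaller, and part of them are genes of myelin. Mobp, a myelin protein, was at 20.3 and 31.7 CPM in Vehicle tumour spots and 80.2 and 78.3 CPM in TREAT (log2 1.19 ± 0.19), and Aplp1, of the amyloid precursor family, at 14.9 and 27.1 CPM against 63.8 and 57.2 CPM. In inner spots alone Mobp had a change of 0.03 (edgeR adjusted p = 0.920) and Aplp1 of 0.33 (0.230), so neither was called there. The rim, which held more myelin RNA than the inner spots, was 7.43% and 9.93% of Vehicle tumour spots and 21.3% and 12.7% of TREAT tumour spots. Cd36, a fatty acid scavenger receptor, was at 5.75 and 7.17 CPM against 19.1 and 21.1 CPM (log2 1.22 ± 0.23), Bhlhe40, a transcription factor of stress and clock control, at 47.7 and 52.97 CPM against 156 and 123 CPM (1.04 ± 0.17), with 140, 145, 179 and 170.0 CPM in brain spots, and Cst7, cystatin F of activated microglia and lymphocytes, at 12.8 and 13.7 CPM against 39.1 and 32.0 CPM (0.99 ± 0.19). In inner spots Cst7 kept a change of 0.75 and Cd36 of 1.21. Btbd35f27, Btbd35f21, Spin2e and Speer4c, with changes of 0.98 to 1.31, belong to multi-copy families whose members cannot be separated with certainty.

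**Figure D5:**
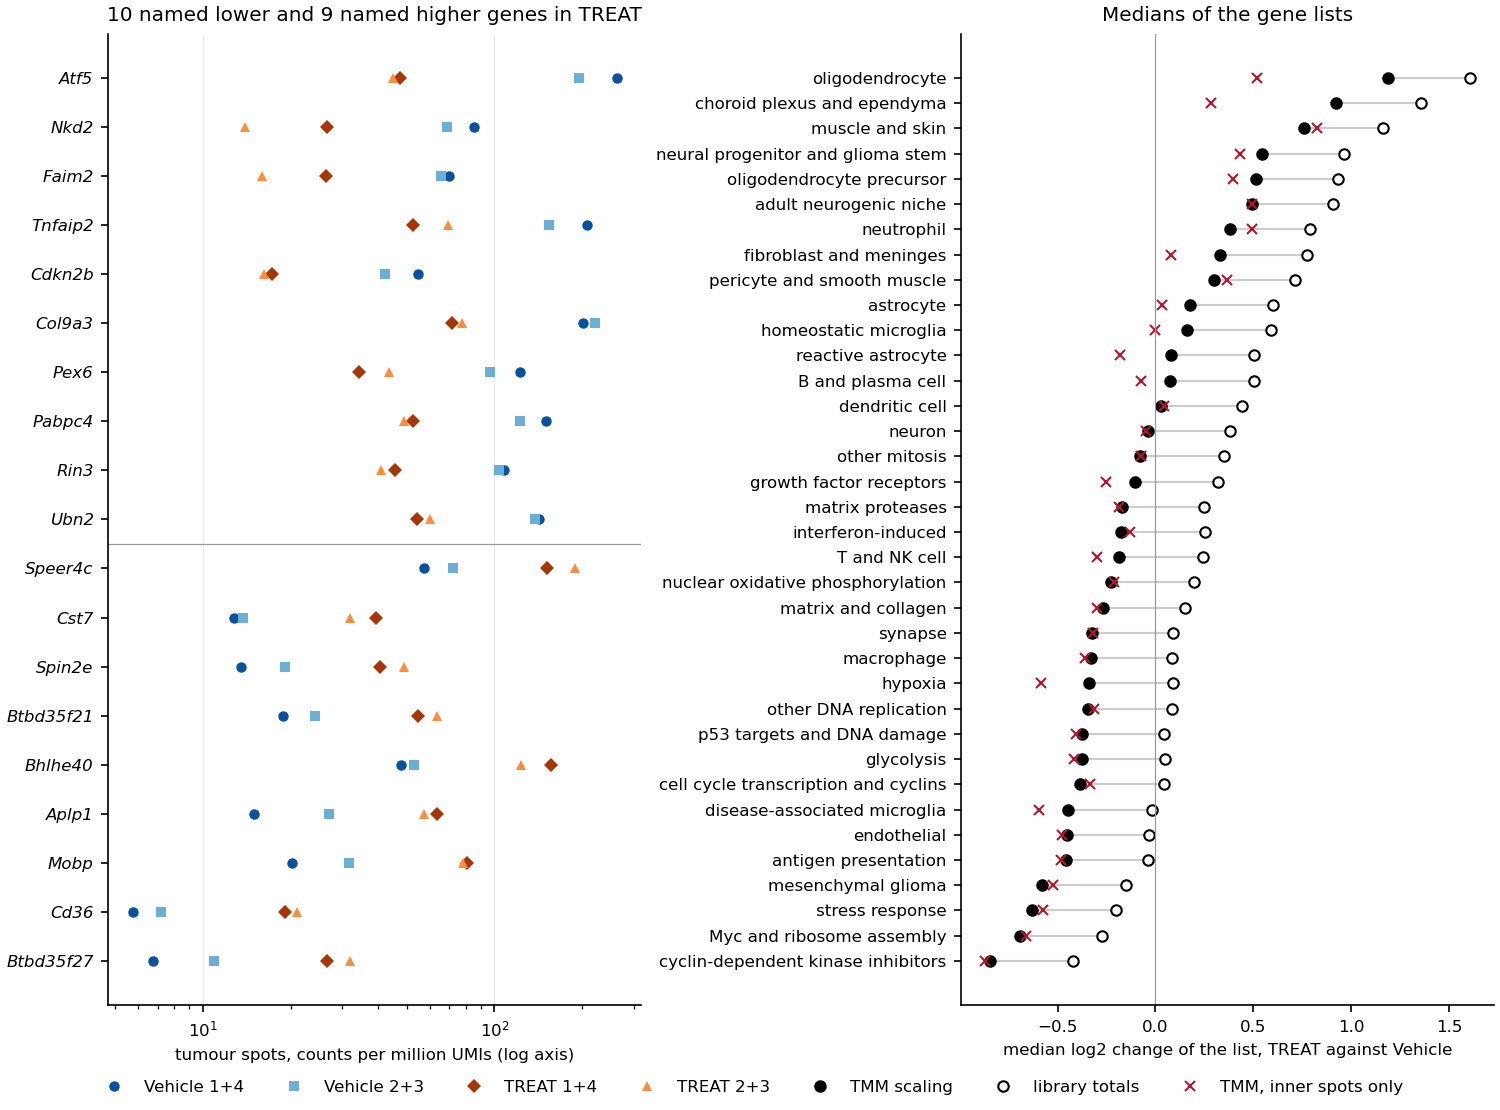
Left, level in tumour spots of the 10 named genes lower and 9 named genes higher in TREAT, with 1 marker per capture area on a log axis of CPM. Right, median log2 change of each of 36 gene lists with TMM scaling, with library totals and in inner spots only: the oligodendrocyte median is 1.19, 1.60 and 0.52, and the cyclin-dependent kinase inhibitor median is -0.84, -0.42 and -0.87.

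Some lists kept their direction under both scalings. Over all 19714 genes 2191 rose and 3549 fell with TMM factors, and 7858 rose and 1372 fell with library totals. Of 7 inhibitors of cyclin-dependent kinases 5 fell with TMM factors and 5 with library totals, with medians of -0.84 and -0.42. Cdkn1a, the p21 inhibitor induced by p53, was at 330 and 338 CPM in Vehicle and 114 and 166 CPM in TREAT (log2 -1.67 ± 0.20, edgeR adjusted p = 4.09e-05), and Cdkn2b, the p15 inhibitor, at 54.7 and 42.0 CPM against 17.2 and 16.2 CPM. Cdkn2a, high in all tumour spots, was at 510 and 483 CPM against 385 and 359 CPM. Genes of Myc and ribosome assembly fell in 12 of 20 with TMM and 7 of 20 with library totals, while 1 and 2 rose. Rrs1, a ribosome assembly factor, was at 215 and 178 CPM against 79.8 and 103 CPM. Stress response genes fell in 9 of 14 features, in 5 of 14 with library totals and in 5 of 14 without Vehicle 1+4. Chac1, which degrades glutathione under stress, was at 80.9 and 75.7 CPM against 40.6 and 38.0 CPM, Sesn2 at 157 and 141 CPM against 87.8 and 75.7 CPM, and Herpud1, of the unfolded protein response, at 98.9 and 99.4 CPM against 60.6 and 54.1 CPM. Oligodendrocyte genes rose in 11 of 11 under both scalings. In inner spots alone 3 of 11 rose, where 2578 of all 19619 genes did. Fewer of the 11 were also called without Vehicle 1+4, a fit that leaves 1 Vehicle area.

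For the replication and mitosis lists the median changed sign with the scaling, which shifted all genes together. Over all 19714 genes the median was 0.09 with TMM factors and 0.51 with library totals. Calls over all genes were 2191 higher and 3549 lower with TMM, and 7858 higher and 1372 lower with library totals. With TMM factors 13 of 30 replication genes fell and 0 rose (median -0.34), and with library totals 6 fell and 5 rose (0.08). Mitosis genes had 8 of 33 lower and 0 higher (-0.08) with TMM, and 3 lower and 12 higher (0.35) with library totals. Mcm4, a helicase subunit, was at 123 and 113 CPM in Vehicle and 56.4 and 54.8 CPM in TREAT (log2 -1.52 ± 0.17, edgeR adjusted p = 3.00e-05), and Ccnd1 fell by 1.46 ± 0.19. Bub3, of the spindle checkpoint, was at 217 and 193 CPM against 99.7 and 125 CPM. Mcm4 and Bub3 were thus lower in TREAT per library total as well. The list of cyclins and transcription factors had 1 of 20 higher and 7 lower with TMM (median -0.38). Its summed level, of which Ccnd1 is a large part, was 3513.5 and 3493.9 CPM in Vehicle and 2469 and 2411.5 CPM in TREAT tumour spots. Because the rule asks for cell cycle genes, tumour spots of both groups had to hold them.

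Immune and mesenchymal lists were also moved by the scaling, together with all genes. The interferon list had 0 of 18 higher and 2 lower with TMM (median -0.18), and 4 higher and 1 lower with library totals (0.25). Antigen presentation genes had 5 of 16 lower with TMM and 3 with library totals, with 0 higher under either, and 3 were lower without Vehicle 1+4. Tapbp, tapasin of the peptide loading complex, was at 1946 and 2003 CPM in Vehicle and 625 and 1208 CPM in TREAT (log2 -1.52 ± 0.26, edgeR adjusted p = 4.43e-04), and Nlrc5, the activator of class I genes, at 361 and 369 CPM against 237 and 271 CPM. Mesenchymal genes fell in 11 of 17 with TMM, in 2 of 17 with library totals and in 2 of 17 without Vehicle 1+4. Cebpb, a factor of that state, was at 920 and 769 CPM against 319 and 524 CPM. Hypoxia genes fell in 5 of 14 with TMM and 3 with library totals, rose in 0 and 2, and fell in 2 without Vehicle 1+4. Slc2a1, the glucose transporter, was at 447 and 471 CPM against 175 and 258 CPM. T and NK cell genes had 1 of 12 higher and 4 lower with TMM, 3 higher and 1 lower with library totals, and 1 each without Vehicle 1+4. Choroid plexus genes were higher in 4 of 10, but their sum over tumour spots was 106, 233, 1682 and 146 CPM, with 7685 CPM in the rim of TREAT 1+4 alone.

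Whether the difference between tumour and brain spots itself differed between groups was tested as an interaction. Of 20047 genes, 0 (0%) were higher and 1 (0.00499%) lower in TREAT by edgeR at an adjusted p under 0.05, and 3848 had an unadjusted p under 0.05, while DESeq2 called 216 higher and 637 lower. The gene was Col9a3 (ENSMUSG00000027570, mm10 chromosome 2, 180598102 to 180622192). Col9a3 was at 201, 220, 71.4 and 77.5 CPM in tumour spots and at 44.4, 51.1, 50.8 and 59.5 CPM in brain spots, so only the Vehicle tumour spots stood well above brain (log2 difference -1.91 ± 0.14, edgeR adjusted p = 0.0279). It was past the threshold in 8 of 12 alternatives, and the edgeR adjusted p was 0.207 without Vehicle 1+4 and 0.0523 without Vehicle 2+3. The next in p did not pass (each with edgeR adjusted p = 0.0567). Among these, Klf16, Faim2, Atf5 and Vps37b had negative differences, with Atf5 at 40.6, 36.3, 20.1 and 16.2 CPM in brain spots, and Frzb, Shisa6, Il33, Hapln2 and Lhfpl3 had positive ones. Il33, a cytokine of glia, was at 3.21, 3.56, 13.7 and 10.4 CPM in tumour spots and 73.5, 73.5, 80.5 and 64.4 CPM in brain spots. In inner spots alone the difference of Il33 was 0.93 and that of Hapln2 0.90, where all tumour spots gave 1.64 and 1.499.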

How the data were processed

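Spatial RNA libraries came from 4 capture areas of fixed, paraffin-embedded mouse brain, read through pairs of ligated probes, per the labels' protocols. The authors deposited raw UMI counts for every gene in every spot. The submitters' processing notes name Space Ranger 2.1.1, the build mm10, Seurat and R 4.4.1. Of 32589 features, 304 with deprecated identifiers were left out. Of the 32285 used, 26335 matched 1 entry of the RefSeq gene table of GRCm38.p6.

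Members and gene lists were chosen with earlier results of these data known. Counts were summed per area and class, since spots are not replicates, and no doublet caller was run because a spot can hold several cells. Sums were fitted with edgeR 4.0.16 (R 4.3.3, limma 3.58.1), TMM scaling and filterByExpr. P-values were adjusted by Benjamini-Hochberg over all genes outside the rule. Levels are CPM of the summed counts, and errors are SE of fitted changes or SD over areas. Shares were compared with exact permutation tests (scipy 1.17.1).

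Named genes outside the rule and with a proper name were, for tumour against brain, the 12 largest changes in each direction past the threshold with 1 sign in all areas and at least 50 CPM. For TREAT against Vehicle they were the 10 smallest p in each direction with at least 20 CPM and areas that did not overlap, for the interaction the 5 smallest p, and within a list at most 4 members by smallest p, plus members described for their role or as an end of a list's range. Those further members were chosen after their values were seen. Counts were also simulated with the same profile in all sums, the same dispersion for all genes and no area effect. At each fold 99 or 100 of the better counted genes were changed. The tumour against brain fit found 89.0% of the 2-fold and 100% of the 4-fold changes, with 7 false calls among 19649 genes. The TREAT against Vehicle fit found 62.6% and 97.0%, with 3 false calls among 19559 genes. The interaction fit found 37.0% and 89.0%, with 7 false calls among 19959 genes. Far more genes differ in the real sums, and areas differ too, so these shares need not hold there. Alternatives were DESeq2 1.42.0, library totals, other filters, thresholds and blocks, and leaving out each area. Inner spots alone and a crossed pairing of areas were added after seeing the data. Of the named genes, 2 are not reported here.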

Additional observations from a re-analysis of the deposited data

Results flagged for a closer look

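Col9a3 was the 1 gene whose difference between tumour and brain spots differed between groups by the interaction test, with a log2 difference of -1.91 (TREAT minus Vehicle, edgeR adjusted p = 0.0279). Its levels were 201, 220, 71.4 and 77.5 CPM in tumour spots and 44.4, 51.1, 50.8 and 59.5 CPM in brain spots.

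Spots outside the tissue outline also carried the cell cycle signal, in data that no comparison used. Of off-tissue spots with at least 2000 UMIs, 106 of 285 (37.2%) in Vehicle 1+4, 156 of 335 (46.6%) in Vehicle 2+3, 27 of 312 (8.65%) in TREAT 1+4 and 55 of 345 (15.9%) in TREAT 2+3 reached 1500 CPM of the rule genes. Their order over the areas is that of the shares of tissue spots, 33.5%, 44.2%, 8.12% and 21.2%.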

How the results depend on the processing

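Counts of genes higher and lower in tumour spots against brain spots stayed between 4970 and 7376 and between 4591 and 6761 over 14 alternatives, and the differences in tumour share (-25.1 to -20.9 percentage points; -30.7 to -17.6 leaving out an area) and in tumour neighbours kept their sign. For TREAT against Vehicle in tumour spots, genes higher numbered 7858 with library totals, 485 with DESeq2, 1083 at a mean of 10 CPM or more and 106 to 2230 leaving out an area. Genes lower numbered 1372 with library totals, 1370 at 10 CPM or more and 1353 to 3473 leaving out an area, with both lowest counts without Vehicle 1+4. With the replicate number as a block, 4203 were higher and 3500 lower; the labels share only a number, and the deviations of same-numbered areas correlated at -0.14 over 9988 genes. The crossed pairing gave 1519 and 4398. In the interaction, genes higher numbered 1 with library totals, 216 with DESeq2, 121 with no count filter, 73 with inner spots only and 0 to 196 leaving out an area. Genes lower numbered 637, 638 and 196 with DESeq2, no filter and inner spots, 0 at 10 CPM or more, 0 with tumour spots at 1000 CPM or more and 0 to 406 leaving out an area. Ttr, 2.28 higher in TREAT, reversed to -0.68 in inner spots and ranged from -1.23 (without TREAT 1+4) to 3.22 leaving out an area. Among alternative values of single genes, 3670 kept their call, 202 lost it, 43 gained it and 2 reversed. The causes were not tested. With 2 areas a group, depth differs with group, and depth limits genes of a few CPM.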

Other observations

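Genes of muscle and skin, chosen as a list for tissue that should be absent, were at 35.8, 25.8, 24.4 and 31.6 CPM in tumour spots and 28.3, 28.5, 37.3 and 39.9 CPM in brain spots, summed over 9 genes. Of 8 tested, 2 were higher and 2 lower in tumour spots, from Acta1 (log2 -4.44) to Tnnt3 (2.66), an actin and a troponin of skeletal muscle. Genes of the adult neurogenic niches, where neurons are still born, were at 39.6, 51.2, 81.5 and 61.9 CPM in tumour spots and 372, 378, 396 and 256 CPM in brain spots, and 8 of 10 were lower in tumour spots. Calb2, the calcium-binding protein calretinin, was at 2.54, 4.09, 4.64 and 1.93 CPM against 127, 143, 157 and 45.5 CPM. Genes of reactive astrocytes summed to 3784, 3631, 4369 and 3100 CPM in inner spots, 5519, 5173, 6136 and 5153 CPM in the rim and 5539, 5377, 8511 and 6745 CPM between the thresholds, against 1782, 2295, 1382 and 1551 CPM in brain spots. Of these 12 genes 6 were higher and 5 lower in tumour spots, and Vim, also a gene of the mesenchymal list, took 2554, 2411, 3068 and 2174 CPM of the tumour sum against 225, 346, 163 and 160 CPM in brain spots. Dendritic cell genes were at 84.2, 75.9, 79.5 and 69.8 CPM in tumour spots and 22.0, 23.9, 26.6 and 20.96 CPM in brain spots, where 4 of 8 were higher and 1 lower, from Flt3 (log2 -1.74), a growth factor receptor, to Batf3 (2.91), a factor of cross-presenting dendritic cells.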
